A study of Mus musculus with 16 samples.

Results

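The circadian clock genes described here were 10 transcripts of the core molecular clock: the activators Arntl (also called Bmal1), Clock and Npas2, the repressors Per1, Per2, Per3 and Ciart, the nuclear receptors Nr1d1 and Nr1d2 (the REV-ERB proteins), and the output factor Dbp. They were chosen by name, through their Ensembl identifiers, from the 51912 genes of a count table of RNA from the mouse retinal pigment epithelium (RPE), a single layer of pigmented cells on which the photoreceptors rest. All 10 of 10 were in the table and all 10 passed the filter that left 15380 genes for testing, which was a mean of at least 1 CPM (counts scaled to a library of 1e+06 with TMM factors) over the 16 libraries.

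Libraries were made from male C57BL/6 mice aged 40 weeks with or without a working Sucnr1 gene, which encodes a receptor for succinate (wild type and knockout), that were untreated or exposed to hydroquinone, an oxidant. The 4 groups were untreated wild type, hydroquinone wild type, untreated knockout and hydroquinone knockout, with 4 libraries each and 1 eye per library. By the titles the libraries came from 13 mice, namely 2, 4, 3 and 4 in that order of groups, because 3 untreated mice gave both eyes; the protocol gives 4 animals per group, and the titles were followed. Retinas were peeled away first, and the RPE was then taken off the choroid by hand with forceps. The knockout allele, the dose, route and length of the hydroquinone exposure, and the hour at which eyes were collected are not given in the sources used here.

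The clock is a transcriptional feedback loop. ARNTL pairs with CLOCK or NPAS2 and activates the Per, Cry, Nr1d, Dbp and Ciart genes through E-box sequences; the PER and CRY proteins, and CIART, then repress that activity. NR1D1 and NR1D2 repress Arntl through ROR elements, and DBP activates genes through D-boxes. In tissues with a running clock Arntl transcripts peak at about the opposite time of day to those of Nr1d1, Dbp and the Per genes, so libraries taken at different hours would differ in opposite directions for these genes. The RPE carries such a clock and is known for a daily burst of phagocytosis of photoreceptor outer segments.

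Promoter windows are shown for the 5 genes whose windows held a searched clock motif, because the loop's factors are known to bind sequences of these kinds. Windows ran from 250 bases before to 50 bases after a transcription start (RefSeq, GRCm38.p6), and 9 of the 10 genes matched, with 13 windows; Per2 had no entry. The E-box CACGTG, found in 7.15% of all 32851 promoter windows of this length, was present in the windows of Per1 (1 match) and Ciart (3 matches). The E-box-like CACGTT, in 4.68% of windows, was found once in Nr1d1, and the D-box, searched as TTATGTAA or TTACGTAA and in 1.06% of windows, was found at 2 places in Per3. A ROR element was in 0.384% of windows and in the second Arntl window. Both strands were searched, the motifs searched do not overlap one another in these windows, and each match is a description of letters only. Sequences run 5′ to 3′ on the gene's strand, with the matched motif in capitals: Per1 at chr11:69098699-69098998 (+ strand), Ciart at chr3:95882179-95882478 (- strand), Nr1d1 at chr11:98775328-98775627 (- strand), Per3 at chr4:151044616-151044915 (- strand) and Arntl at chr7:113207261-113207560 (+ strand).
Per1: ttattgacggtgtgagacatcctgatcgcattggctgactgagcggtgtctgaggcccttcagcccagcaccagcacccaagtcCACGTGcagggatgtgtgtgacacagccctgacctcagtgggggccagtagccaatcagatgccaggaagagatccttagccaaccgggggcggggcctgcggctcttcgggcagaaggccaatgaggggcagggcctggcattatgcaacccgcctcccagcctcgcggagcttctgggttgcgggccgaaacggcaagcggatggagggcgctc
Ciart: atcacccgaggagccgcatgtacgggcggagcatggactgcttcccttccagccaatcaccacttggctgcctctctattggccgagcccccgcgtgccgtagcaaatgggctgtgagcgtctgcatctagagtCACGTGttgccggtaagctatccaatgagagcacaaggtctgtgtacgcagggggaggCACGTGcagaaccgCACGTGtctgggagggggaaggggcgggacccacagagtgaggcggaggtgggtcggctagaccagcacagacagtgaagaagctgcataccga
Nr1d1: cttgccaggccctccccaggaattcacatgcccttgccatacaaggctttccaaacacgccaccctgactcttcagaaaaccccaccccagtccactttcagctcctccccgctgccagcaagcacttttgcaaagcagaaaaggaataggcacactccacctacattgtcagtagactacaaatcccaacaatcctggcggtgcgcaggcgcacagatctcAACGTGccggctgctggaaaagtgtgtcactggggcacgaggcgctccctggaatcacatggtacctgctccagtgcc
Per3: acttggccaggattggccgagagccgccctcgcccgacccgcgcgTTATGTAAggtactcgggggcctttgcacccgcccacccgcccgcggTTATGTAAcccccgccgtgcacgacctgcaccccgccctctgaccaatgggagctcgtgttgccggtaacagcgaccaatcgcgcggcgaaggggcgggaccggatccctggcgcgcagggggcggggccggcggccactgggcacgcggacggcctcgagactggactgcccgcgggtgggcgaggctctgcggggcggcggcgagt
Arntl: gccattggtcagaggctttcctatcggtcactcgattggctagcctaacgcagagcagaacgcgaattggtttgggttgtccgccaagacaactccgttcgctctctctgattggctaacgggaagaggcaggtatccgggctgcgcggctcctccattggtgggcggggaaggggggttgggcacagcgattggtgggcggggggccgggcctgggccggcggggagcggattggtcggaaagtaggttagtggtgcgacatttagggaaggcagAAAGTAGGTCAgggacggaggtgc
From the start site the first base of each match lay at -166 in Per1, at -116, -58 and -44 in Ciart, at -28 in Nr1d1, at -205 and -158 in Per3, and at +27 in Arntl.

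Library totals ran from 21113549 to 35332444 counts. Sucnr1 itself gave 29 counts over the 8 wild-type libraries (4 at 0, highest 17) and 4 counts over the 8 knockout libraries (6 at 0, highest 3), too few to check the genotype of a single library. RPE markers were high in every library, with a summed level of 19874 to 30795 CPM over 9 genes. The summed level of 11 rod photoreceptor markers ranged from 249 to 22240 CPM, with no marker at 0 in any library, and was highest in untreated knockout replicate 4 and hydroquinone knockout replicate 1. By group it ran from 964 to 9176 in untreated wild type, 497 to 3978 in hydroquinone wild type, 340 to 22240 in untreated knockout and 249 to 20201 CPM in hydroquinone knockout. Other cell types gave summed ranges of 21.4 to 462 CPM for cones, 220 to 579 for inner retinal neurons, 141 to 469 for endothelium, 363 to 840 for macrophages and 213 to 462 for melanocytes. Fibroblast markers summed to 1039 to 2933 CPM, corneal epithelium to 3367 to 27717, oligodendrocytes to 144 to 10085, muscle to 751 to 3460 and lens to 3.93 to 138 CPM. Library identifiers came with a letter (7 libraries) or without (9 libraries); each form made up 2 of 4 libraries in 3 groups, and hydroquinone wild type had 3 without and 1 with. What the letter stands for is not given in the sources used here.

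Per kilobase of exon, Dbp and Nr1d2 had the highest levels of the 10 clock genes and Ciart the lowest. Mean levels over 16 libraries were 24.9 ± 3.90 CPM per kb (SD, n = 16) for Dbp, 23.4 ± 2.83 for Nr1d2, 10.3 ± 5.23 for Nr1d1 and 10.2 ± 1.28 for Clock. Then came Per1 at 5.41 ± 1.24, Per2 at 4.71 ± 0.759, Per3 at 4.53 ± 0.871 and Arntl at 3.78 ± 1.23 CPM per kb. Npas2 (1.43 ± 0.482) and Ciart (0.717 ± 0.348 CPM per kb) were lowest. Neighbours in this order differed by less than the sum of their SDs, except at the steps from Nr1d2 to Nr1d1, from Clock to Per1 and from Arntl to Npas2. Clock and Nr1d2 varied least between libraries, with a coefficient of variation (CV) of 12.5% and 12.1%, and Nr1d1 (50.7%) and Ciart (48.5%) varied most; the median over all tested genes was 19.9%. The ratio of the highest to the lowest library was 5.79 for Nr1d1, 2.73 for Arntl and 1.80 for Dbp, while Ciart, with 7 to 84 counts per library, had a ratio of 10.9.

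**Figure D1:**
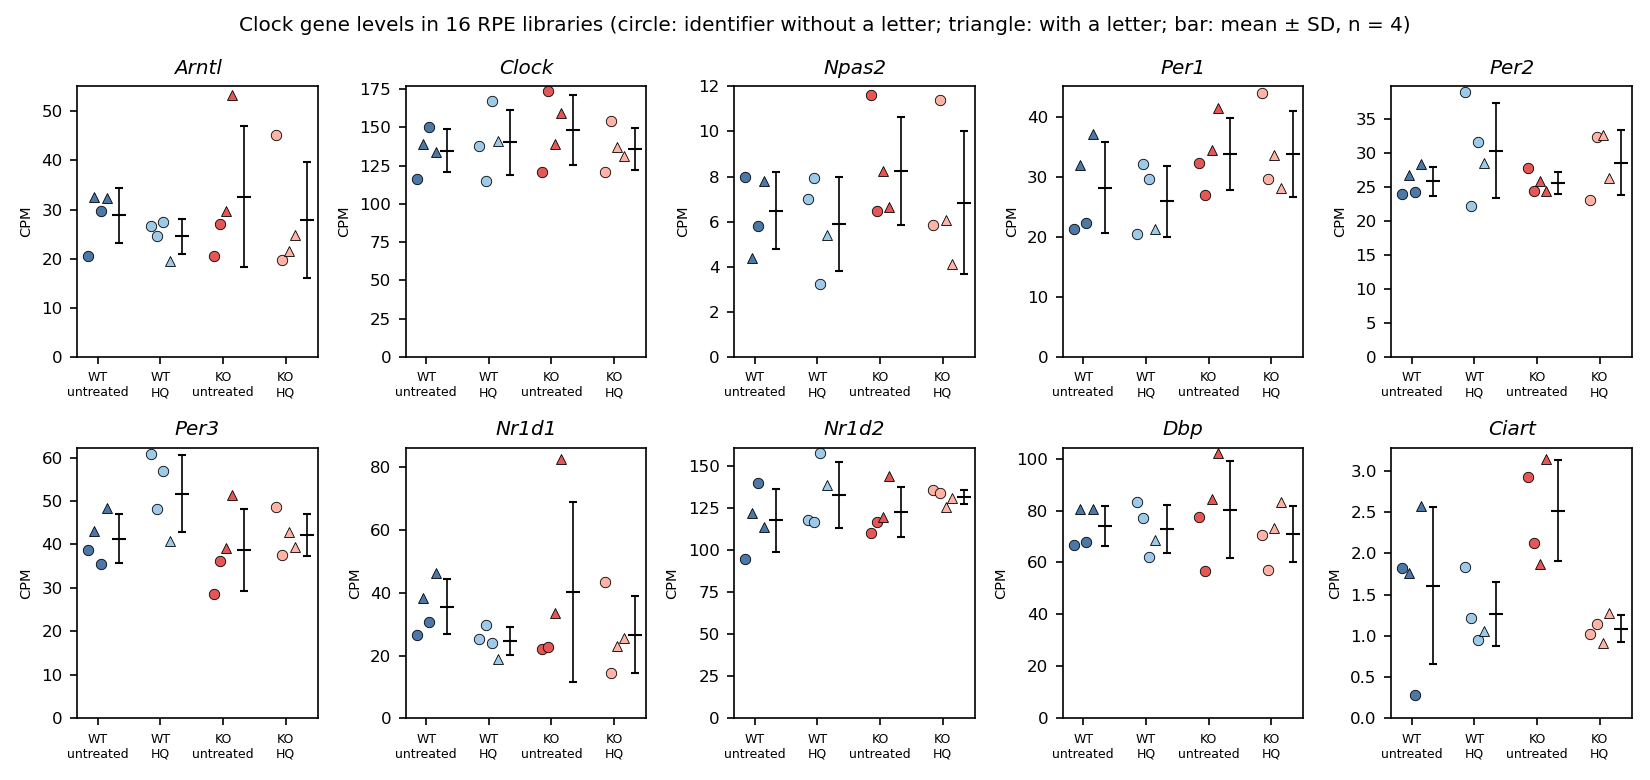
Level of each clock gene in CPM (vertical axis, from 0) in the 16 libraries by group; circles are libraries whose identifier has no letter, triangles those with one, and bars are the mean ± SD of 4 libraries. Only Ciart in knockout mice shows hydroquinone libraries all below the untreated ones, and the highest Nr1d1 value, 82.7 CPM, is in the library with the highest Arntl value, 53.3 CPM.

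No clock gene passed the threshold of an adjusted p below 0.05 (edgeR's quasi-likelihood test, Benjamini-Hochberg over 15380 genes) in any of the 7 comparisons. The lowest adjusted p of the 10 was 0.864. The share of all genes called was itself small: 0.00650% for hydroquinone in wild type, 0.0455% for hydroquinone in knockout, 0.0845% for hydroquinone averaged over genotype and 0% for each of the 3 genotype comparisons and the interaction. At an unadjusted p below 0.05 the clock genes gave 0 for hydroquinone in wild type (4.28% of all genes), 1 for hydroquinone in knockout (Ciart; 2.96%) and 1 for the average (Ciart; 5.72%). For knockout against wild type the counts were 0 in untreated mice (1.32%), 0 under hydroquinone (4.18%), 1 averaged over treatment (Per1; 2.96%) and 0 for the interaction (1.92%). With DESeq2 0 of the 10 were called in every comparison, where it called 0.130% of all genes for hydroquinone in wild type, 0.0911% in knockout, 0.254% averaged and 0.0195% for genotype under hydroquinone. With limma, mouse as block, 0 of the 10 were called as well, beside 0.0195% of all genes for hydroquinone in wild type, 0.0455% in knockout and 0.0845% averaged. At an unadjusted p below 0.05, limma gave the same genes as edgeR in each comparison, and DESeq2 gave these and also Nr1d1 for the hydroquinone average.

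Among the activators, Arntl (ENSMUSG00000055116; chr7:113207465-113314126, + strand) encodes the obligate partner of CLOCK and NPAS2. It stood at 20.6, 32.6, 29.8 and 32.3 CPM in untreated wild type and at 26.7, 24.6, 27.4 and 19.5 CPM in hydroquinone wild type (replicates 1 to 4). In the knockout it stood at 20.6, 27.0, 29.6 and 53.3 CPM untreated and at 45.2, 19.8, 21.6 and 24.8 CPM under hydroquinone. Within each genotype the groups overlapped, and both high values, 53.3 and 45.2 CPM, were in knockout libraries of different treatment. The hydroquinone difference was -0.23 on the log2 scale (SE 0.29, 95% interval -0.86 to 0.40) in wild type and -0.23 (SE 0.29, -0.85 to 0.40) in knockout. Without untreated knockout replicate 4, the value in knockout was 0.12, so its sign depended on that library.

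Clock (ENSMUSG00000029238; chr5:76209868-76304792, - strand) and Npas2 (ENSMUSG00000026077; chr1:39193731-39363236, + strand) encode the alternative partners of ARNTL. Clock was among the steadiest of the 10: its group means were 135 ± 14.0 (SD, n = 4) CPM in untreated wild type, 140 ± 21.3 in hydroquinone wild type, 148 ± 23.2 in untreated knockout and 136 ± 13.9 CPM in hydroquinone knockout. Its hydroquinone difference averaged over genotype was -0.04 (95% interval -0.24 to 0.17, log2). Npas2 was scarce, at 3.22 to 11.6 CPM, with group means of 6.49 ± 1.72, 5.90 ± 2.07, 8.23 ± 2.36 and 6.85 ± 3.16 CPM in the same order. Its averaged hydroquinone difference was -0.20 (95% interval -0.72 to 0.32). All groups of both genes overlapped.

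The Per genes encode the negative arm of the loop. Per1 (ENSMUSG00000020893; chr11:69095217-69109960, + strand), which is also induced quickly by light and hormonal signals, stood at 21.4, 32.0, 22.4 and 37.2 CPM in untreated wild type and at 20.5, 32.2, 29.7 and 21.3 CPM in hydroquinone wild type. In the knockout its levels were 32.4, 27.0, 34.6 and 41.5 CPM untreated and 44.0, 29.7, 33.7 and 28.1 CPM under hydroquinone. The knockout libraries lay between 27.0 and 44.0 CPM and the wild-type libraries between 20.5 and 37.2, so the genotypes overlapped. The knockout minus wild-type difference averaged over treatment was 0.33 (SE 0.15, 95% interval 0.001 to 0.649, log2), with an unadjusted p of 0.0493 and an adjusted p of 0.987 in edgeR. It was 0.26 in untreated mice and 0.39 under hydroquinone. The hydroquinone difference of Per1 was -0.12 in wild type and 0.001 in knockout.

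Per2 (ENSMUSG00000055866; chr1:91415982-91459324, - strand) and Per3 (ENSMUSG00000028957; chr4:151003652-151044665, - strand) had higher means under hydroquinone in both genotypes, with no difference past the threshold. Per2 was at 23.9, 26.7, 24.3 and 28.4 CPM in untreated wild type and 39.0, 22.2, 31.6 and 28.5 CPM in hydroquinone wild type. In the knockout it was at 27.8, 24.4, 25.9 and 24.4 CPM untreated and 23.0, 32.3, 32.7 and 26.3 CPM under hydroquinone. Groups overlapped, and the spread in the hydroquinone groups (SD 6.97 and 4.75 CPM) was wider than in the untreated ones (2.11 and 1.62 CPM). The untreated libraries came from 2 wild-type and 3 knockout mice and the hydroquinone libraries from 4 of each genotype. These SDs therefore do not measure spread between mice alike. Averaged over genotype the Per2 difference was 0.19 (SE 0.11, 95% interval -0.04 to 0.43, log2).

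Per3 stood at 38.7, 43.0, 35.4 and 48.3 CPM in untreated wild type and at 60.7, 48.2, 56.8 and 40.9 CPM in hydroquinone wild type. In knockout libraries it was at 28.6, 36.1, 39.1 and 51.3 CPM untreated and 48.7, 37.5, 42.9 and 39.5 CPM under hydroquinone. The 2 highest values were hydroquinone wild-type libraries without a letter, and the groups overlapped. The hydroquinone difference was 0.32 (SE 0.17, 95% interval -0.04 to 0.68, log2) in wild type and 0.12 (SE 0.17, -0.24 to 0.48) in knockout. In libraries without a letter alone the values were 0.59 in wild type and 0.38 in knockout. In those with a letter they were -0.16 and -0.13; the wild-type value there rests on 1 hydroquinone library, replicate 4, which is assumed to vary like the other groups.

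Ciart (ENSMUSG00000038550; chr3:95878503-95882251, - strand), a repressor of the ARNTL and CLOCK pair, was the scarcest of the 10. Its read counts were 54, 45, 7 and 59 in untreated wild type, 51, 42, 24 and 25 in hydroquinone wild type, 61, 65, 58 and 84 in untreated knockout and 31, 27, 28 and 30 in hydroquinone knockout. In CPM the untreated knockout libraries lay at 2.92, 2.13, 1.87 and 3.14 and the hydroquinone knockout libraries at 1.02, 1.14, 0.907 and 1.28, with no overlap. The wild-type libraries lay at 1.82, 1.76, 0.288 and 2.57 CPM untreated and at 1.83, 1.21, 0.954 and 1.06 CPM under hydroquinone, and these overlapped. Of the 10 clock genes, Ciart in knockout was the 1 whose hydroquinone and untreated libraries did not overlap, where 1.91% of all tested genes did not; 0 of the 10 were separated by hydroquinone in wild type (2.91%), by genotype in untreated mice (1.05%) or by genotype under hydroquinone (2.33%).

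The Ciart difference with hydroquinone was -1.21 (SE 0.47, 95% interval -2.20 to -0.21, log2) in knockout, with an unadjusted p of 0.0207 and an adjusted p of 1.000 in edgeR. It was -0.35 (SE 0.46, -1.34 to 0.64) in wild type and -0.78 (SE 0.33, -1.48 to -0.08) averaged over genotype, with an adjusted p of 0.864. The difference between the genotypes' responses, the interaction, was -0.86 (SE 0.65, 95% interval -2.25 to 0.54), and did not pass. In knockout the value was -1.25 in libraries without a letter and -1.19 in those with one, and -1.12 with the rod score, the mean log2(CPM + 1) of the 11 rod markers, as a covariate. With limma on log2(CPM + 1), a scale that understates changes of scarce genes, it was -0.74, and without untreated knockout replicate 4 it was -1.08 with an unadjusted p of 0.0501 in edgeR. In wild type the value without a letter was 0.34, and without untreated replicate 3, the library with 7 reads, it was -0.70.

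The nuclear receptors form the second loop that feeds back on Arntl. Nr1d1 (ENSMUSG00000020889; chr11:98767932-98775333, - strand) stood at 26.6, 38.4, 30.7 and 46.4 CPM in untreated wild type and at 25.4, 29.7, 24.1 and 18.8 CPM in hydroquinone wild type. In the knockout it stood at 22.1, 22.7, 33.6 and 82.7 CPM untreated and 43.5, 14.3, 23.1 and 25.6 CPM under hydroquinone. The 82.7 CPM library was untreated knockout replicate 4, which also had the highest Arntl and the highest rod score (10.0, where the libraries ranged from 3.03 to 10.0). The hydroquinone difference was -0.53 (SE 0.40, 95% interval -1.38 to 0.32, log2) in wild type, -0.59 (SE 0.40, -1.44 to 0.26) in knockout and -0.56 (SE 0.28, -1.17 to 0.04) averaged over genotype, with an adjusted p of 0.894 in edgeR. Without untreated knockout replicate 4 the value in knockout was 0.03. With the rod score as a covariate the averaged value was -0.28 (adjusted p = 0.903). In libraries without a letter alone the averaged value was 0.11 (SE 0.29), and in those with a letter -1.21 (SE 0.34, adjusted p = 0.160).

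Nr1d1 shares 263 exon bases, 8.55% of its exons, with Thra on the other strand. The counting's strand setting is not given, so reads in that stretch are uncertain; Thra itself ranged from 132 to 215 CPM. Over 13 mice the r of Nr1d1 with Thra, a relation added after the values had been seen, was 0.741 (permutation p = 0.00299, adjusted p = 0.00598 over 2 relations; rho 0.720, permutation p = 0.00686, adjusted p = 0.0137). It was 0.562 (permutation p = 0.0728) without the 2 mice farthest from the Thra median, 0.354 (exact permutation p = 0.358) in libraries without a letter and 0.844 (exact permutation p = 0.0190) in those with one. The part of Thra reads in the Nr1d1 level was not tested. Nr1d2 (ENSMUSG00000021775; chr14:18204054-18239127, - strand), whose protein binds the same elements as NR1D1, was far steadier. Its means were 118 ± 18.9 (SD, n = 4) CPM in untreated wild type, 133 ± 19.2 in hydroquinone wild type, 123 ± 14.8 in untreated knockout and 132 ± 4.50 CPM in hydroquinone knockout. Its averaged hydroquinone difference was 0.14 (SE 0.09, 95% interval -0.06 to 0.33, log2), of opposite sign to that of Nr1d1, and neither passed the threshold.

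Dbp (ENSMUSG00000059824; chr7:45705088-45710203, + strand), a D-box activator, is among the transcripts with the widest daily swing in most tissues. Here it stood at 66.9, 80.7, 67.8 and 80.5 CPM in untreated wild type and at 83.3, 77.2, 62.1 and 68.7 CPM in hydroquinone wild type. In the knockout it stood at 77.6, 56.9, 84.4 and 102 CPM untreated and 70.7, 57.1, 73.4 and 83.1 CPM under hydroquinone. All 16 libraries lay within a 1.80-fold range and the groups overlapped. The hydroquinone difference was -0.02 (SE 0.16, 95% interval -0.37 to 0.32, log2) in wild type and -0.18 (SE 0.16, -0.52 to 0.17) in knockout. Dbp shares 539 exon bases, 18.0% of its exons, with Sphk2 on the other strand, whose level ranged from 39.9 to 64.9 CPM and whose r with Dbp over 13 mice was 0.127 (rho 0.275; permutation p = 0.680 and 0.365, adjusted over the same 2 relations 0.680 and 0.365). That r was -0.100 (permutation p = 0.771) without the 2 mice farthest from the Sphk2 median, 0.659 (exact permutation p = 0.0561) in libraries without a letter and -0.306 (exact permutation p = 0.530) in those with one.

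**Figure D2:**
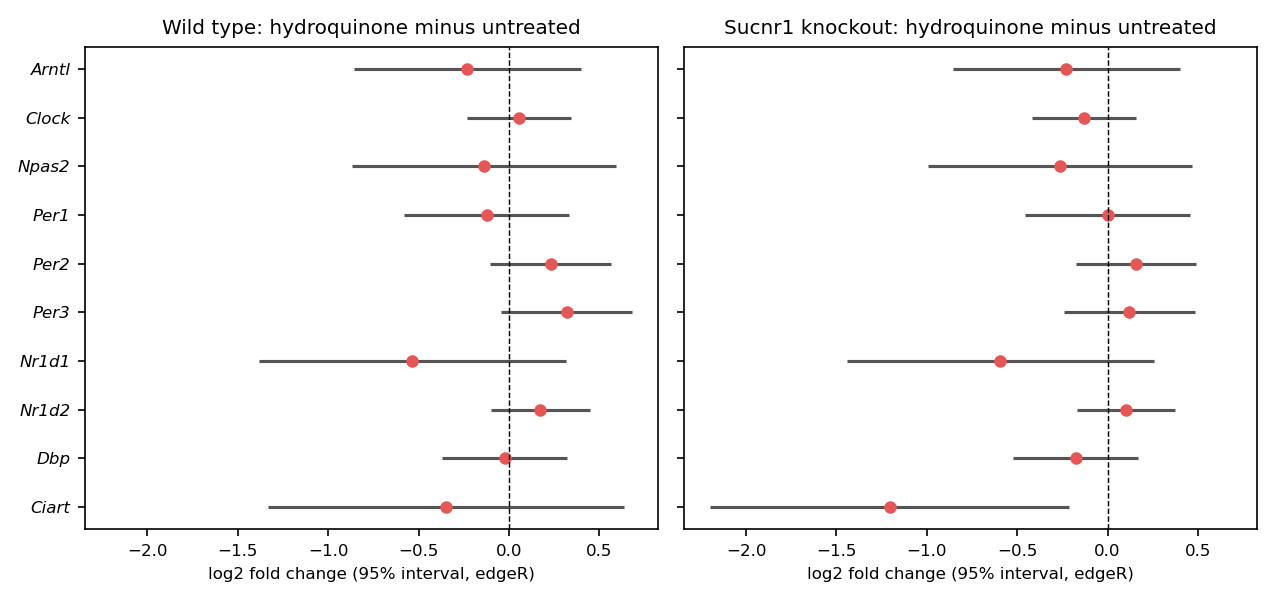
Fitted log2 difference, hydroquinone minus untreated, for each clock gene in wild-type (left) and Sucnr1 knockout mice (right); points are edgeR estimates and lines their 95% intervals. Of the 20 intervals, only that of Ciart in knockout, -2.20 to -0.21, lies wholly on one side of 0.

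Set side by side, the averaged hydroquinone difference of Arntl had the same sign as those of Dbp, Per1 and Nr1d1 and the opposite sign to those of Per2 and Per3. Averaged over genotype, Arntl was at -0.23 (95% interval -0.67 to 0.21, log2), Dbp at -0.10 (-0.34 to 0.15), Per1 at -0.06 (-0.39 to 0.26), Per2 at 0.19 (-0.04 to 0.43), Per3 at 0.22 (-0.04 to 0.48) and Nr1d1 at -0.56 (-1.17 to 0.04). All 6 intervals included 0. Arntl was opposite in sign to Per2 and Per3 in each genotype as well, at -0.23 against 0.23 and 0.32 in wild type and -0.23 against 0.16 and 0.12 in knockout. That pattern was not stable. Without untreated knockout replicate 4, Arntl in knockout was at 0.115. In libraries without a letter it was at 0.070 in wild type and 0.412 in knockout, the same sign as Per2 and Per3. In those with a letter it was opposite in sign to Per2 but not to Per3. The median of the 10 genes was -0.07 in wild type and -0.15 in knockout, beside a median of 0.00 over all tested genes in both. Whether eyes of different groups were collected at different hours was not tested.

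The averaged hydroquinone differences were also fitted in each identifier form alone. In libraries with a letter (4 untreated, 3 under hydroquinone, of which 1 wild type) they were -1.21 (SE 0.34, log2) for Nr1d1, -1.11 (SE 0.35) for Ciart, -0.78 (SE 0.23) for Arntl, -0.50 (SE 0.13) for Per1 and -0.24 (SE 0.10) for Dbp. The first 4 of these had an unadjusted p below 0.05, as did 19.9% of all genes in that fit, and 0 of the 10 passed the threshold (lowest adjusted p = 0.147 in edgeR). In libraries without a letter the same values were 0.11 (SE 0.29), -0.455 (SE 0.55), 0.24 (SE 0.25), 0.31 (SE 0.18) and 0.03 (SE 0.15). Per3 there was at 0.48 (SE 0.14), the 1 gene of the 10 with an unadjusted p below 0.05 (0.00907; 4.34% of all genes), with an adjusted p of 0.999. The rod score, the mean log2(CPM + 1) of rod markers, ran from 7.55 to 10.0 in untreated and 3.03 to 4.60 in hydroquinone libraries with a letter, and from 3.85 to 6.34 and 3.80 to 9.84 in those without. The difference between the forms was not tested, nor was the part of the rod score in it.

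Genotype differences did not pass the threshold for any of the 10 genes. In untreated mice they ran from -0.09 for Per3 to 0.64 (SE 0.46) for Ciart, with 8 of 10 values above 0 and a median of 0.16 beside 0.01 over all tested genes. Under hydroquinone they ran from -0.29 for Per3 to 0.39 for Per1, with 4 of 10 above 0 and a median of -0.02 beside 0.02 (log2). The interaction ran from -0.86 for Ciart to 0.12 for Per1, and the lowest adjusted p of the 10 for it was 1.000 in edgeR.

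Across mice, Arntl and Nr1d1 were high in the same libraries, although their transcripts peak at different hours in a running clock. Over 13 mice, with the eyes of a mouse averaged, Pearson's r of log2(CPM + 1) was 0.921 (permutation p = 1e-05, the smallest that 100000 resamples can give; adjusted p = 9e-05 over 9 relations with Arntl), and Spearman's rho was 0.692 (permutation p = 0.0109, adjusted p = 0.0981). Without the 2 mice farthest from the Arntl median, hydroquinone knockout replicate 1 and untreated knockout replicate 4, r was 0.799 (permutation, adjusted p = 0.0299). Within the 9 libraries without a letter r was 0.802 (exact permutation p = 0.0174, adjusted p = 0.157), and within the 7 with a letter it was 0.989 (exact permutation p = 0.0004, adjusted p = 0.00357). In those 7 both genes, and Ciart as well, were higher in every untreated library than in any hydroquinone library. The share of all tested genes separated in this way is not given here. The permutation took no account of groups, so that r and p include the split by treatment. After the slope on the rod score was removed from both genes, r was 0.770 (permutation, adjusted p = 0.0209). How many of all tested genes had as high an r with Arntl is not given here.

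Per1 also had a positive r with Arntl, 0.654 (permutation p = 0.0149, adjusted p = 0.0670; rho 0.236, permutation p = 0.437, adjusted p = 0.504), but r was 0.035 without the same 2 mice, so that relation rested on them. For Dbp r was 0.495 (rho 0.231), for Ciart 0.435 (rho 0.269), for Per3 0.412 (rho 0.445), for Nr1d2 0.277 (rho 0.253) and for Clock 0.056 (rho 0.236). The permutation p for r of these 5 ran from 0.0902 for Dbp to 0.859 for Clock, with adjusted p from 0.231 to 0.859. Centred on group means, r was 0.846 for Per3 (permutation, adjusted p = 0.00094) and 0.684 for Per1 (permutation, adjusted p = 0.0267). Both passed the threshold there, as Nr1d1 did, while the remaining genes had an adjusted p of 0.195 or above. With the rod score slope removed, r was -0.178 for Per3. Within the 7 libraries with a letter, r was 0.931 for both Dbp and Ciart (exact permutation, adjusted p = 0.0196 and 0.00714), while within the 9 without a letter it was 0.102 and -0.446. Only Npas2 (r = -0.140, rho = -0.192, permutation adjusted p = 0.717) and Per2 (r = -0.444, rho = -0.418, permutation adjusted p = 0.231) had a negative r with Arntl over the 13 mice.

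**Figure D3:**
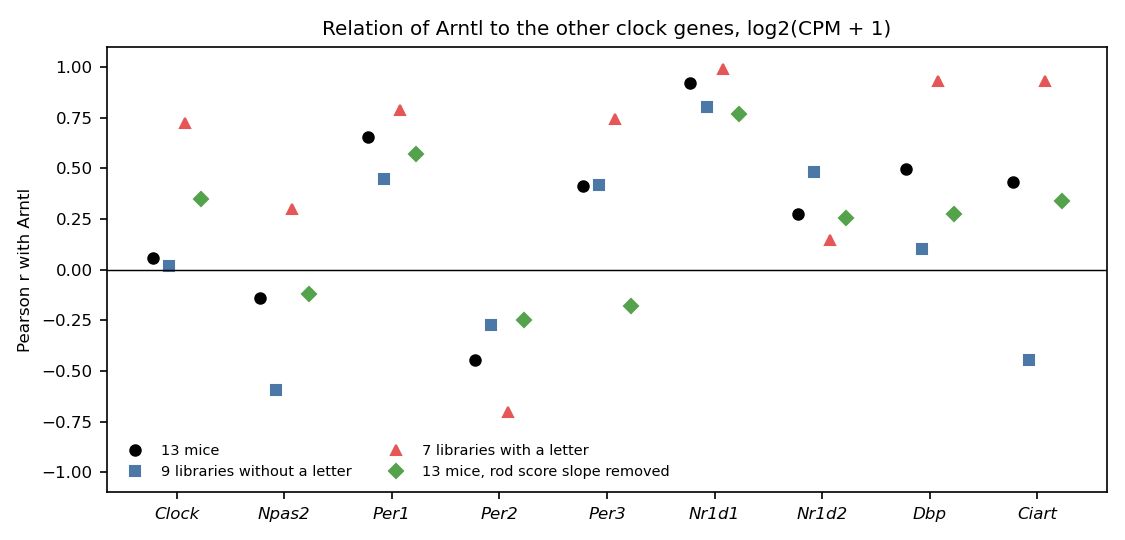
Pearson's r of each clock gene with Arntl, log2(CPM + 1), over 13 mice (black circles), the 9 libraries without a letter (blue squares), the 7 with a letter (red triangles) and 13 mice with the rod score slope removed (green diamonds). Nr1d1 is positive in all 4 sets (0.921, 0.802, 0.989 and 0.770), and Per2 is negative in all 4.

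Arntl and Nr1d1 also moved with rod photoreceptor transcripts. Over 13 mice, r with the rod score was 0.825 for Arntl (permutation p = 0.00024, adjusted p = 0.00135 over 10 relations; rho 0.621, permutation p = 0.0262, adjusted p = 0.131) and 0.798 for Nr1d1 (permutation p = 0.00027, adjusted p = 0.00135; rho 0.747, permutation p = 0.00447, adjusted p = 0.0447). These relations were added after the values had been seen. Without the 2 mice farthest from the median score, hydroquinone knockout replicates 3 and 4, r was 0.857 for Arntl and 0.873 for Nr1d1. Both of these mice had low scores. The 2 with the highest scores, untreated knockout replicate 4 (10.0) and hydroquinone knockout replicate 1 (9.84), stayed in. That check therefore cannot show whether the relations rest on the 2 highest mice. Within libraries without a letter r was 0.741 and 0.807 (exact permutation, adjusted p = 0.0664 for each, not past the threshold). Within those with one it was 0.876 and 0.877 (exact permutation, adjusted p = 0.0245 for each). The score of libraries with a letter ran from 7.55 to 10.0 untreated and from 3.03 to 4.60 under hydroquinone. The values of r there therefore include the split by treatment. The part of rod RNA in the levels of these genes was not tested, and in bulk tissue fewer cells of a type and less RNA per cell cannot be told apart. Scores made in the same way from cone and inner retinal markers were also highest in untreated knockout replicate 4, at 5.27 and 5.59. Relations with those scores were not tested, so the relation is not shown to be particular to rods. The share of all tested genes with as high an r was not computed.

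Per3 followed at r = 0.598 with the rod score (rho 0.577; permutation p = 0.0324, adjusted p = 0.108). The other 7 genes had r between -0.382 for Per2 and 0.442 for Per1, with an adjusted p of 0.286 or above. Centred on group means, r was 0.778 for Per1 (permutation, adjusted p = 0.00363) and 0.756 for Per3 (permutation, adjusted p = 0.00555). Both passed the threshold there, as Arntl and Nr1d1 did, while the remaining genes had an adjusted p of 0.311 or above. With the score as a covariate the averaged hydroquinone difference was -0.07 for Arntl (-0.23 without it), -0.28 for Nr1d1 (-0.56 without it) and 0.32 (SE 0.09; adjusted p = 0.589 in edgeR) for Per3 (0.22 without it), all in log2.

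**Figure D4:**
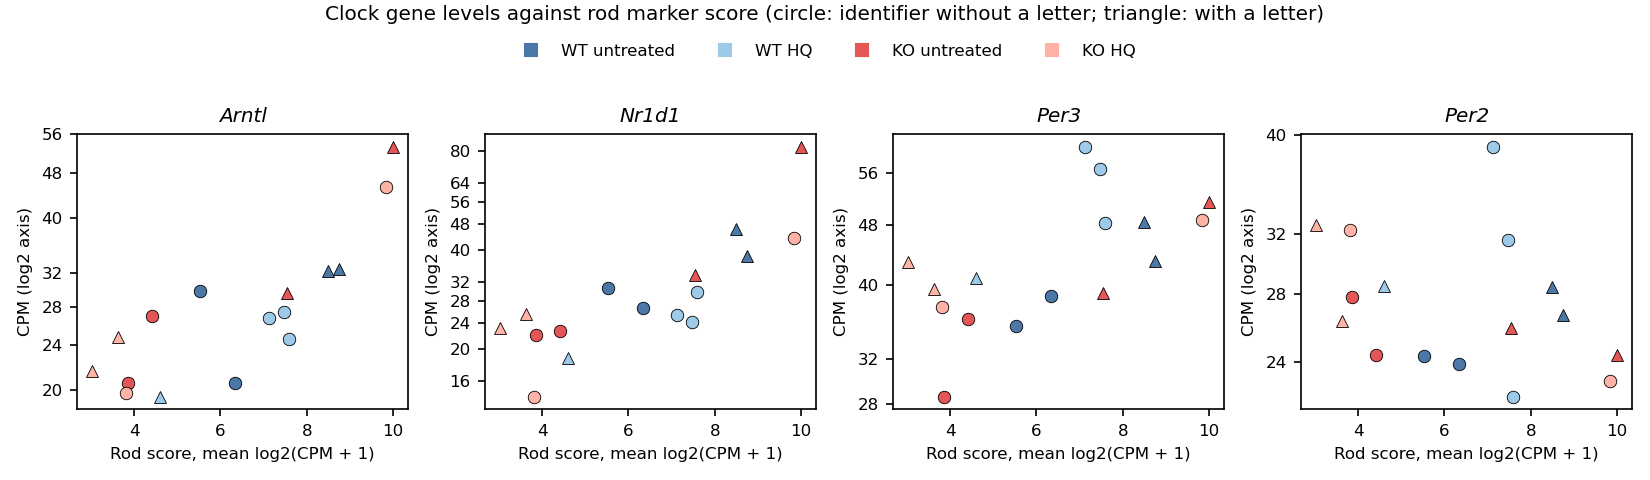
Levels of Arntl, Nr1d1, Per3 and Per2 in CPM (log2 axis) against the rod score, the mean log2(CPM + 1) of 11 rod markers, in 16 libraries; colours are groups, circles have no letter in the identifier and triangles have one. Arntl and Nr1d1 are highest in untreated knockout replicate 4, where the score is 10.0, and Per2 is at 24.4 CPM there.

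Fellow eyes gave a comparison within an animal. In the 3 untreated mice with both eyes, 1 eye of each had an identifier with a letter and the other had none. Nr1d1 was higher in the eye with a letter in 3 of 3 mice, by 1.44-, 1.51- and 1.52-fold, and Arntl was higher by 1.58-, 1.08- and 1.44-fold. Per1, Per3 and Dbp were also higher in that eye in 3 of 3 mice, by 1.07- to 1.66-fold for Per1, 1.11- to 1.37-fold for Per3 and 1.09- to 1.21-fold for Dbp. Clock, Per2 and Nr1d2 were higher there in 2 of 3 mice, and Npas2 and Ciart in 1 of 3. How many of all tested genes were higher in that eye in 3 of 3 mice was not computed. The rod score was higher in the same eyes by 2.42, 2.95 and 3.70 log2 units, and its part in these differences was not tested. With 3 mice no test was made.

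For 6 of the 10 genes the median difference between fellow eyes was larger than that between different mice of a group. For Nr1d1 the median absolute difference was 0.58 between fellow eyes and 0.54 over 21 pairs of libraries from different mice of the same group, both in log2(CPM + 1). The corresponding values were 0.51 and 0.38 for Arntl, 0.56 and 0.35 for Per1, 0.44 and 0.27 for Per3, 0.24 and 0.28 for Dbp, and 0.20 and 0.23 for Clock. The fellow eyes were all untreated and always differed in identifier form and rod score. The 21 pairs included hydroquinone groups and pairs of the same form. The medians therefore cannot show whether eyes of a mouse differ more than mice do. Ciart differed most within 1 mouse: 7 reads (0.288 CPM) in untreated wild-type replicate 3 and 59 reads (2.57 CPM) in replicate 4, the fellow eye.

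**Figure D5:**
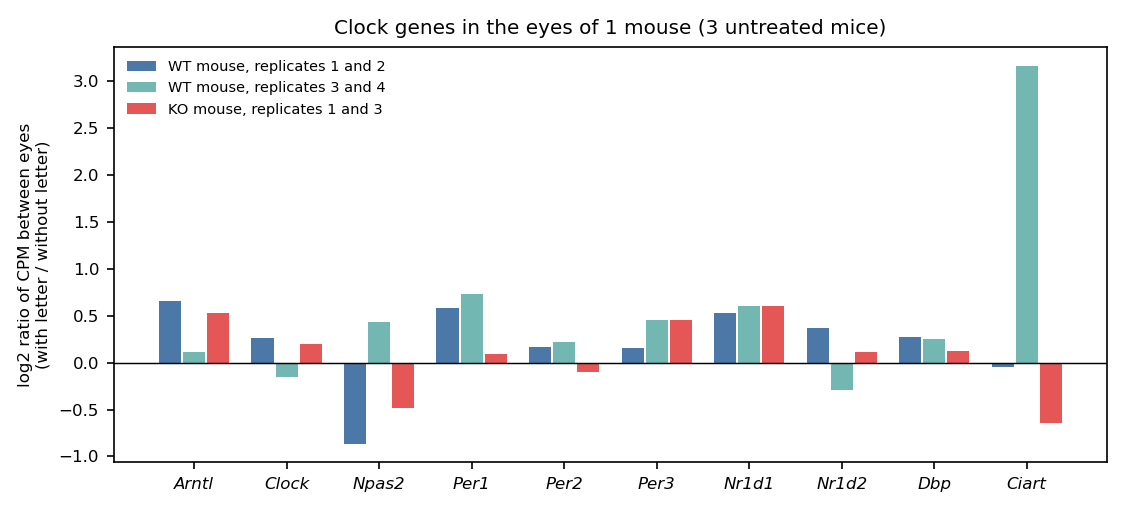
log2 ratio of CPM between the eyes of 1 mouse, eye with a letter over eye without, for each clock gene (horizontal axis) in 3 untreated mice (colours). Arntl, Per1, Per3, Nr1d1 and Dbp are above 0 in all 3 mice; the tallest bar is Ciart in the mouse with 7 and 59 reads.

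No gene of the wider clock network was called either. Of 17 other clock components (the Cry and Ror genes, Bhlhe40, Bhlhe41, PAR bZIP factors, casein kinases and ubiquitin ligase subunits among them), 0 passed in any of the 7 comparisons. Averaged over genotype, 12 of 17 hydroquinone differences were positive, with a median of 0.04 beside 0.005 over all tested genes. The 2 with the smallest p were Timeless, a homologue of the fly clock gene, at 0.35 (SE 0.15, unadjusted p = 0.0309, adjusted p = 0.864 in edgeR), and Bhlhe40, a repressor at E-boxes, at 0.20 (SE 0.09, unadjusted p = 0.0520). Of 6 output genes 0 were called; Nampt, the rate-limiting enzyme of NAD salvage, was at 0.20 (SE 0.08, unadjusted p = 0.0216, adjusted p = 0.825 in edgeR) and Wee1, a cell cycle kinase, at 0.24 (SE 0.12, unadjusted p = 0.0630).

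Genes that respond to hormones and other stimuli, to which Per1 also responds, were read alongside. Of 6 glucocorticoid-induced genes 0 were called, with 3 of 6 averaged hydroquinone differences positive; Klf9 was at -0.16 (SE 0.12) and Fkbp5 at -0.07 (SE 0.08, log2). Of 8 immediate early genes 0 were called. Atf3, a stress-induced transcription factor, had a hydroquinone difference of 0.51 (SE 0.19, unadjusted p = 0.0148, adjusted p = 0.823 in edgeR) and Junb one of 0.47 (SE 0.37). All 8 immediate early genes had lower fitted values in knockout than in wild type averaged over treatment, with a median of -0.62 beside 0.02 over all tested genes and a lowest adjusted p of 0.987.

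Genes outside these lists that followed Dbp most closely over the 13 mice were picked by Pearson's r of log2(CPM + 1), as a description over mice that share library depth and scaling. The 6 highest were Abcb9 (r = 0.881), Pard6a (0.879), Drg2 (0.875), Zfp523 (0.875), Pip4p1 (0.874) and Mpdu1 (0.866). The 4 lowest were Etf1 (-0.909), Arl8b (-0.892), Sept10 (-0.865) and Eif3a (-0.848). Among the clock genes Nr1d1 was nearest to Dbp, with r = 0.715, and 1.17% of tested genes had a higher r. Per1 (r = 0.247), Per3 (0.304) and Per2 (-0.135) were far from it, with 28.7%, 24.5% and 63.8% of tested genes above them.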

How the data were processed

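RNA of 1 eye per library was sequenced from RPE on an Illumina NovaSeq, per the labels' protocols. The deposited table holds read counts per Ensembl gene; its name announces FPKM, but 100% of values are whole numbers and the totals differ, so the deposited values were treated as counts. The submitters' processing notes name STAR, Cufflinks, DESeq2 and mm10, with no role or version; the strand setting is not given in the sources used here. Symbols, positions and exon lengths came from GENCODE vM21 (GRCm38; 51719 of 51912 identifiers matched), and promoters from RefSeq.

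Groups follow the titles, with replicates numbered in accession order, so the numbers pair no libraries. edgeR 4.0.16 (R 4.3.3; TMM, quasi-likelihood F test) was fitted to 15380 genes with a mean CPM of at least 1, which held 99.8% of counts, with 4 group means and 7 contrasts over all 16 libraries. P-values were adjusted over all tested genes by Benjamini-Hochberg, with a threshold of 0.05. Standard errors and 95% intervals were derived from the F statistic. The script was tested on simulated data.

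edgeR treated fellow eyes as separate libraries, although they share an animal. The consensus correlation of fellow eyes in limma was -0.020, and alternatives with the mouse as a random block and with the eyes summed were run. That correlation rests on 3 untreated mice whose eyes always differed in identifier form. With a value so near 0 the block changes little, so that fit cannot show whether sharing an animal matters. No library was a copy of another in its group (lowest chi-square per degree of freedom of a pair 23.7). Pairs from different groups were not compared. Libraries held 21113549 to 35332444 counts, of which Ciart had 7 to 84 per library. The parts of depth and of spread between libraries in the precision for these genes were not tested.

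Correlations used log2(CPM + 1), eyes of a mouse averaged, and 2-sided permutation (100000 resamples, exact below 10 values). Permutations, also those within an identifier form, shuffled values without regard to group. Other alternatives were DESeq2 1.42.0, limma 3.58.1 with a pseudocount of 1 or 0.1, median-of-ratios scaling, no filter or a mean CPM of 5, identifier form or rod score as covariate, only the groups compared, each library left out, and, chosen after seeing the data, each identifier form alone, relations with the rod score and with overlapping genes, and removal of the rod score slope. The members and gene lists were chosen with earlier results of these data known. Text names all members, per other list the 2 genes with the smallest p for hydroquinone averaged over genotype where none passed, and the genes with the 6 highest and 4 lowest r with Dbp.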

Additional observations from a re-analysis of the deposited data

How the results depend on the processing

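No clock gene passed the threshold in any comparison under any of the 28 settings, where the lowest adjusted p was 0.147. Of the 38 log2 differences tracked, 17 kept their direction under every setting run and 21 were reversed by at least 1; the largest reversed value was 0.594 in size, and the cause was not tested. Leaving out 1 library gave, for hydroquinone in knockout, -0.563 to 0.115 for Arntl (reversed without untreated knockout replicate 4), -0.938 to 0.029 for Nr1d1 (without the same library) and -0.151 to 0.113 for Per1 (hydroquinone knockout replicate 1). For hydroquinone in wild type it gave -0.246 to 0.037 for Per1 (untreated wild-type replicate 4) and -0.093 to 0.047 for Dbp, -0.039 to 0.141 for Clock and -0.316 to 0.065 for Npas2 (each hydroquinone wild-type replicate 3). For the hydroquinone average it gave -0.137 to 0.019 for Per1 (untreated wild-type replicate 4) and -0.083 to 0.007 for Clock (untreated knockout replicate 2). It gave -0.037 to 0.247 for the Per1 interaction (untreated wild-type replicate 4) and -0.258 to 0.027 for Per3 by genotype in untreated mice (untreated knockout replicate 1).

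In libraries without a letter alone, the hydroquinone average was 0.241 for Arntl, 0.026 for Dbp, 0.113 for Nr1d1 and 0.309 for Per1. The value in knockout there was 0.412 for Arntl and 0.329 for Nr1d1, in wild type 0.070 for Arntl, 0.336 for Ciart, 0.155 for Dbp and 0.338 for Per1, and the Per1 interaction was -0.059. In libraries with a letter alone, Per3 was at -0.145 (average), -0.132 (knockout), -0.158 (wild type, 1 hydroquinone library) and 0.009 (genotype under hydroquinone), Nr1d2 at -0.037 and Per1 at -0.297 in knockout, and Junb at -0.268. With the rod score as covariate Arntl was at 0.003 in knockout, Per1 at 0.043 averaged and Dbp at 0.010 in wild type. Dbp in wild type was also 0.055 with identifier form as covariate and 0.004 with a mean CPM of at least 5. The Per1 value in knockout, 0.001 as reported, was -0.010 with DESeq2 and with median-of-ratios scaling, -0.005 with eyes summed and with both limma fits, -0.008 with a mean CPM of at least 5 and -0.018 with only the groups compared.

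For relations with Arntl, r in libraries with a letter was 0.931 for Ciart and Dbp and 0.301 for Npas2, and in those without -0.446 for Ciart and 0.802 for Nr1d1, where fewer libraries enter. Centred on group means r was -0.086 for Clock, 0.684 for Per1 and 0.846 for Per3, and over 16 libraries it was 0.616 for Per1. These Per1 and Per3 values passed the threshold. With the rod score slope removed r was -0.178 for Per3, and without the 2 farthest mice it was -0.205 for Nr1d2. Leaving out 1 mouse gave -0.017 to 0.678 for Ciart and -0.226 to 0.303 for Clock (both reversed without untreated knockout replicate 4), -0.231 to 0.054 for Npas2 (hydroquinone knockout replicate 2) and 0.522 to 0.744 for Per1 (past the threshold without hydroquinone wild-type replicate 1 or hydroquinone knockout replicate 3). For relations with the rod score, r in libraries with a letter was 0.921 for Ciart (past the threshold), 0.593 for Clock, 0.400 for Npas2 and -0.103 for Nr1d2. In those without it was -0.338 for Ciart, 0.741 for Arntl and 0.807 for Nr1d1, none past the threshold. Group-centred values were 0.778 for Per1 and 0.756 for Per3, and over 16 libraries r was 0.625 for Per3, all past the threshold. Leaving out 1 mouse gave -0.012 to 0.491 for Ciart and -0.008 to 0.281 for Nr1d2 (both reversed without untreated knockout replicate 4) and -0.265 to 0.117 for Npas2 (hydroquinone knockout replicate 2). The count of all genes called was 1 (0 to 20 over settings) for hydroquinone in wild type, 7 (0 to 14) in knockout, 13 (0 to 39) averaged, and 0 (0 to 3) for genotype under hydroquinone. Depth limits Sucnr1, at 29 and 4 counts in all.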
